A study of Mus musculus with 21 samples.

Results

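Genes for building ribosomes were followed through the presomitic mesoderm (PSM), the unsegmented tissue from which the somites of the mouse embryo are formed. The set holds 34 genes named for nucleolar processing of ribosomal RNA (rRNA) and for RNA polymerase I. Each gene was represented by its probe set with the highest mean among the probe sets that carry a single gene symbol. All 34 were found among the 18193 genes of the array, and all 34 passed the filter on low signal that left 12143 genes for testing. The PSM came from embryos of CD-1, an outbred mouse strain, with a stage label of embryonic day 8.5 and a dissection protocol that gives 9.0 days post-coitus. It was cut into 7 parts after a short pancreatin treatment. Total RNA was amplified in 2 cycles, labelled with biotin and hybridised to 21 arrays, 3 for each part. The sample titles name the 3 arrays of each part as biological replicates. The labels name no genetic change, and the 7 groups share strain and treatment and differ by the part number alone. Which end of the series of numbers faced the tailbud is not stated in the labels, and positions are given by number. By the design text, left and right PSM were taken from the same embryo and another set from another embryo. Some arrays therefore share an embryo, which ones is not stated, so that p-values speak only of the spread among these 21 arrays.

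RNA polymerase I transcribes the long precursor of rRNA in the nucleolus. Small nucleolar ribonucleoproteins (snoRNPs) guide its chemical modification, and large assemblies of processing factors cut it and fold it into the small and the large ribosomal subunit. Growing and dividing cells, such as those of the embryo's caudal end, need a high output of this pathway, and proteins of the Myc family are known activators of many of its genes.

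Array means ranged from 151 to 154 in MAS5 signal and array medians from 12.9 to 13.7, with no pair of identical arrays. The tissue label was met by PSM and somite markers. Tbx6, a T-box factor of unsegmented PSM, had a mean signal of 534 in part 1 and 29.6 in part 7. Meox1, a somite homeobox gene, had 25.5 and 2718. Of the same list, Hes7 had 523 and 41.4, and Tcf15 had 129 and 2053. By these markers, part 7 was the more somite-like end of the numbers and part 1 the less somite-like end. The summed signal of 9 blood markers ran from 10941 to 19861 over the arrays of part 1 and from 6618 to 12562 over those of part 7, with Hba-a1 below the median of all table values in all 21 arrays. For 10 gut endoderm markers the sums were 260 to 1115 in part 1 and 107 to 388 in part 7, for 10 endothelial markers 94 to 637 and 108 to 356, and for 10 neural tube markers 1375 to 1774 and 1344 to 1381. Between the ends, the endothelial sums were 91 to 1267 in part 2, 589 to 879 in part 3 and 68 to 286 in part 6. Of the neural tube markers, 1 (the proneural factor Neurog2) was below the table median in all 21 arrays and 2 were below it in none. Those 2 moved in opposite directions within the sum, Fabp7 from a mean signal of 982 in part 1 to 93.5 in part 7 and Ncam1 from 534 to 1135. Of the 8 blood markers tested, 6 fell over the parts, against 11.1% of all genes tested. The log2 ratio of 3' to 5' control probe sets of actin and Gapdh, a measure of RNA length, averaged 2.74, 3.70 and 2.28 in the arrays of part 1 and 2.93 to 4.20 in the other parts. The mean ratio of part 1, 2.91, was below the part means of 3.44 to 3.85 in the others, with replicate 2 of part 1 inside the range of the other parts. The part of blood and other cell types in the results that follow was not tested, and results with the ratio as a covariate and without part 1 are given beside them.

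Most of the set had small positive slopes along the part numbers. The slope is the change in log2(signal + 16) per part. Of the 34 genes, 6 rose with the part number (adjusted p under 0.05, limma with Benjamini-Hochberg adjustment over all genes tested), and 0 fell. This is 17.6% of the set, against 8.09% of all genes tested that rose and 11.1% that fell (19.2% in either direction). The 6 were Nop2, Polr1b, Rrp9, Utp20, Nhp2 and Wdr43. The slope was above 0 in 29 of the 34 genes, where 49.0% of all genes tested had a positive slope. The median slope was 0.037 per part over the set and -0.0013 over all genes tested. In 17 of the 34, the slope was positive in each of the 3 replicate numbers taken alone, against 23.9% of all genes tested. In these bulk samples, a lower signal from fewer cells of a type and from less RNA per cell cannot be told apart.

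**Figure D1:**
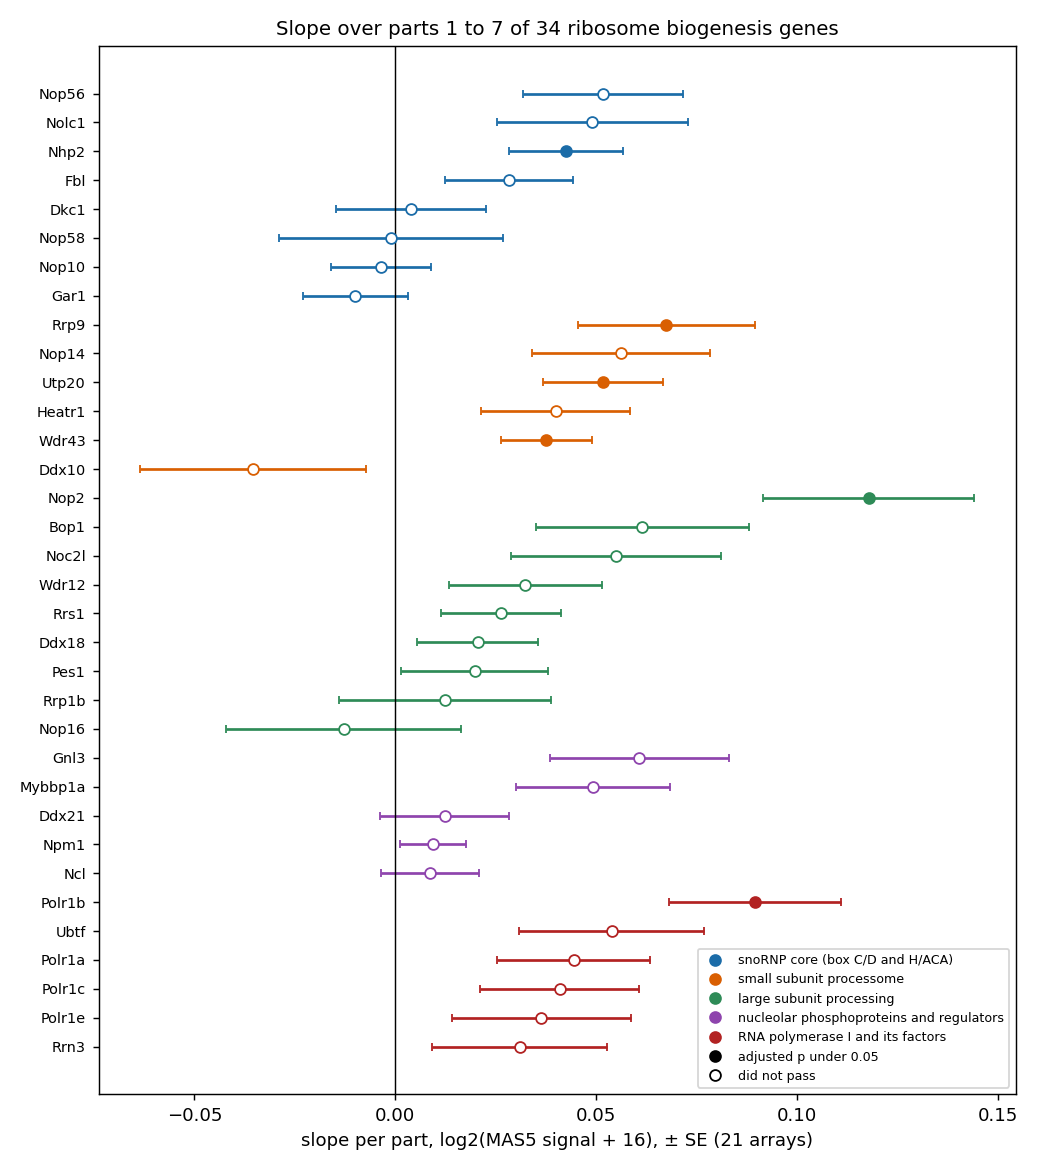
Slope of log2(signal + 16) per part for each of the 34 genes, grouped by role, with bars of ± SE from the limma fit over 21 arrays and filled points for an adjusted p under 0.05. Points of 29 genes lie right of 0, and the 6 filled ones are Nop2, Polr1b, Rrp9, Utp20, Nhp2 and Wdr43.

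The E-box CACGTG, the preferred motif of Myc and its partner Max, was searched for around the start sites, since Myc proteins are known activators of this pathway. The windows ran from 250 bases before to 50 bases after each start, from RefSeq (GRCm38.p6). They cover 30 of the 34 genes, and windows for Fbl, Bop1, Rrs1 and Npm1 were not used here. The motif reads alike on both strands. It was present in 6 of the 30 genes (20%), against 11.8% of the tested genes and 8.09% of all genes with a window. Counted by windows, it was in 15.4% of those of the 30 genes, 9.86% of those of tested genes and 7.15% of all windows. Another E-box, CAGCTG, which also reads alike on both strands, was likewise in 20% of the 30 genes and in 17.8% of the tested genes. Among 84 other genes of the pathway with a window, 21.4% held CACGTG and 7.14% held CAGCTG. Of the 6 genes that rose, Nop2, Wdr43 and Utp20 held CACGTG, and Polr1b, Rrp9 and Nhp2 did not hold it in this window. The stretches around the motif are shown 5' to 3' on the gene's strand with CACGTG in capitals, since these genes include both called and uncalled members. Positions count from the start site.
Nop2, motif at -60 (chr6:125131776-125131875, + strand): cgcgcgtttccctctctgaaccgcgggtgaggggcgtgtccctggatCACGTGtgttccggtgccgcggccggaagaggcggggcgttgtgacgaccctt
Rrn3, motif at -48 (chr16:13780604-13780698, + strand): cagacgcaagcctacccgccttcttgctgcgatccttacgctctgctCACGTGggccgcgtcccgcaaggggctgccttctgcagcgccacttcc
Rrn3, motif at -215 (chr16:13780449-13780536, + strand): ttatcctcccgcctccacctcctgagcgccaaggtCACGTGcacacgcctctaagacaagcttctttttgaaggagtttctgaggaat
Pes1, motif at 3 (chr11:3963965-3963994, + strand): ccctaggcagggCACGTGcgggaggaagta
Wdr43, motif at 18 (chr17:71616220-71616249, + strand): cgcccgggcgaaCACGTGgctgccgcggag
Utp20, motif at 38 (chr10:88826765-88826789, - strand): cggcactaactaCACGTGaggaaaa
Mybbp1a, motif at 41 (chr11:72441355-72441376, + strand): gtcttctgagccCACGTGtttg
Only in Nop2 and Rrn3 did the motif lie upstream of the start. Nop2 had the highest slope of the 34, 0.12 per part, and Rrn3, with 2 copies, had 0.031 and did not pass the test. A match of letters is a description of the sequence and does not show binding.

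All 6 genes of RNA polymerase I and its factors had positive slopes, and 1 of them, Polr1b, passed the test. This 1 gene is 16.7% of the group, where 8.09% of all genes tested rose and 49.0% had a positive slope. Polr1b encodes the second-largest subunit of the enzyme and forms part of its active site. The MAS5 signals of Polr1b for replicates 1, 2 and 3, in that order throughout, were 239.9, 245 and 232 in part 1, 210.5, 229.8 and 308 in part 2 and 224, 189.8 and 285 in part 3. They were 306, 261 and 295 in part 4, 267, 300.1 and 335 in part 5, 262, 341 and 400.2 in part 6 and 336, 306 and 357 in part 7. The 3 arrays of part 1 lay close together, the lowest signals were in parts 2 and 3, and every array of part 7 exceeded every array of part 1. The slope was 0.089 ± 0.021 (SE) per part (adjusted p = 0.00376), and the log2 difference of part 7 from part 1 was 0.45 ± 0.17 (SE), with an adjusted p of 0.0823. Polr1a encodes the largest subunit. In MAS5 signal, Polr1a read 213, 196 and 179 in part 1, 266, 239.7 and 229.6 in part 2 and 254, 225 and 238 in part 3. Polr1a then read 197, 201 and 222 in part 4, 217, 216 and 264 in part 5, 259, 223 and 255 in part 6 and 264, 227 and 323 in part 7. Part 1 held the 2 lowest arrays, signals in parts 2 and 3 were above those of part 1, and part 4 came back down to them before part 7. Part 7 exceeded part 1 by 0.43 ± 0.13 (SE) on the log2 scale (adjusted p = 0.0372), a 1.35-fold ratio of signal + 16, while the slope of 0.044 ± 0.019 (SE) did not pass (adjusted p = 0.110).

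The other 4 genes of this group did not pass the slope test. Polr1c, a subunit shared by RNA polymerases I and III, sloped by 0.041 ± 0.020 (SE) a part, with an adjusted p of 0.162. Its signals per array, in MAS5 units, were 812, 818 and 1044 in part 1, 1013, 958 and 1249.7 in part 2 and 1155, 1048 and 1177 in part 3. Polr1c then read 987, 988 and 1245 in part 4, 1176, 886 and 1270.5 in part 5, 1193, 1024 and 1246 in part 6 and 1126, 954 and 1273 in part 7. The low arrays were replicates 1 and 2 of part 1, and replicate 3 was the highest array in each part. Ubtf, the architectural factor that opens the ribosomal DNA, had 0.054 ± 0.023 (SE) (adjusted p = 0.109), with signals of 204, 273 and 231 in part 1 and 285, 291 and 387 in part 7. The part 7 arrays of Ubtf all exceeded those of part 1. Polr1e, a subunit that helps the enzyme engage its template, had 0.036 ± 0.022 (SE), and Rrn3, the initiation factor that makes the polymerase competent to start, had 0.031 ± 0.022 (SE). The arrays of parts 1 and 7 overlapped for both, with 219.96, 228 and 158 in part 1 and 258, 205 and 233 in part 7 for Polr1e and 316, 423 and 341 in part 1 and 314, 355 and 488 in part 7 for Rrn3.

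Of the 6 genes of the small subunit processome, the assembly that makes the first cuts towards small subunit rRNA, 3 rose and 5 had positive slopes. The 3 are 50% of this small group, where 8.09% of all genes tested rose and 49.0% had a positive slope. Rrp9 encodes a protein of the snoRNP that pairs with the precursor for those cuts. The MAS5 signals of Rrp9 were 146, 104 and 119.5 in part 1, 166, 138 and 116 in part 2 and 151, 150.3 and 129.6 in part 3. Rrp9 then read 120.4, 139.7 and 117 in part 4, 122, 141 and 124 in part 5, 174, 168 and 140.3 in part 6 and 199.9, 164 and 197 in part 7. Part 7 lay above all arrays of part 1 but overlapped parts 2 and 6, and parts 4 and 5 sat lower. Its slope was 0.067 ± 0.022 (SE) per part (adjusted p = 0.0324) and part 7 exceeded part 1 by 0.55 ± 0.15 (SE) on the log2 scale (adjusted p = 0.0180). The slope call was lost in 10 of 35 alternatives, all of which left out arrays: replicate number 2 or 3 as a whole, replicate 2 or 3 of part 1, replicate 3 of part 2, replicate 1 or 2 of part 6 or any array of part 7. The slopes of Polr1b and Nop2 passed in all 35.

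Utp20, a large scaffold protein of pre-ribosomes, rose by 0.052 ± 0.015 (SE) per part (adjusted p = 0.0156). Utp20 had MAS5 signals of 452, 371 and 363 in part 1, 412, 374 and 417 in part 2 and 436, 376 and 389.6 in part 3. Utp20 then read 419, 422 and 376 in part 4, 415, 408 and 455 in part 5, 433, 412 and 545 in part 6 and 504, 494 and 489.5 in part 7. Part 7 exceeded every other array except replicate 3 of part 6. The Utp20 call was lost without replicate number 2 or 3. Wdr43, a factor known to link transcription of the precursor to its processing, rose by 0.038 ± 0.011 (SE) per part (adjusted p = 0.0210). In MAS5 signal, Wdr43 read 675, 675 and 646 in part 1, 775, 684 and 718 in part 2 and 685, 699 and 735 in part 3. Wdr43 then read 697, 777 and 732 in part 4, 793, 722 and 799 in part 5, 713, 834 and 752 in part 6 and 735, 829 and 837 in part 7. All 3 arrays of part 1 were below every array of the other parts. The Wdr43 call was lost without replicate number 2 or 3 and without replicate 3 of part 1.

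The other 3 genes of this assembly did not pass the test. Nop14, needed for small subunit maturation, had a slope of 0.056 ± 0.022 (SE) (adjusted p = 0.0815). Its signals per array, in MAS5 units, were 192, 144 and 187 in part 1, 149, 195 and 196 in part 2 and 158, 166 and 238 in part 3. Nop14 then read 147, 200.03 and 211 in part 4, 187, 185 and 248 in part 5, 192, 199 and 256 in part 6 and 198, 216 and 245 in part 7. Replicate 3 was the highest array in parts 2 to 7, and the arrays of part 7 exceeded those of part 1. Heatr1, a factor of early precursor processing, had 0.040 ± 0.019 (SE) per part, with signals of 555, 568 and 526 in part 1 and 658, 672 and 786 in part 7 that did not overlap. Ddx10, an RNA helicase, had the lowest slope of the 34, -0.035 ± 0.028 (SE) (95% interval -0.093 to 0.023), with 212, 163 and 196 in part 1 and 136, 144 and 185 in part 7, and these overlapped.

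Of the 9 genes of large subunit processing, 1 rose and 8 had positive slopes. The share that rose, 11.1%, is near the 8.09% of all genes tested, of which 49.0% had a positive slope. Nop2, an RNA methyltransferase that acts on large subunit rRNA, had the highest slope of the 34, at 0.12 ± 0.026 (SE) (adjusted p = 0.00207). The MAS5 signals of Nop2 were 222, 239.99 and 218 in part 1, 389.6, 319 and 237 in part 2 and 408, 409 and 290.3 in part 3. Nop2 then read 389, 361 and 273 in part 4, 392, 277 and 345 in part 5, 483, 434 and 339 in part 6 and 477, 400.3 and 406 in part 7. The 3 arrays of part 1 were the low end, and all later arrays read higher than all of part 1 except replicate 3 of part 2. Part 7 exceeded part 1 by 0.87 ± 0.19 (SE) on the log2 scale (adjusted p = 0.00361), a 1.82-fold ratio of signal + 16. Of the 34, Nop2 alone was called by the F test over the 7 parts (adjusted p = 0.0346), a test that 13.4% of all genes passed. That count was 0 without replicate number 1 or 2, without any 1 array of part 1, without replicate 1 or 2 of part 6 and without replicate 1 or 3 of part 7, 2 without replicate 3 of part 2 or 3, and 3 without replicate 2 of part 7. Without part 1, its slope was 0.079 ± 0.032 (SE) per part and did not pass (adjusted p = 0.122).

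Bop1, Pes1 and Wdr12 form a complex required for maturation of the large subunit rRNA. Part 7 exceeded part 1 for Bop1 by 0.64 ± 0.17 (SE) on the log2 scale (adjusted p = 0.0139), while its slope of 0.061 ± 0.027 (SE) per part did not pass (adjusted p = 0.113). Bop1 had MAS5 signals of 321, 289 and 299 in part 1, 419, 429.9 and 315 in part 2 and 434, 459.7 and 329 in part 3. Bop1 then read 318, 326 and 308 in part 4, 380.2, 292 and 316 in part 5, 473, 378 and 354 in part 6 and 602, 392 and 468 in part 7. Signals were low in part 1, higher in replicates 1 and 2 of parts 2 and 3, lower again in parts 4 and 5, and highest on average in part 7. Pes1 had a slope of 0.020 ± 0.018 (SE) and Wdr12 of 0.032 ± 0.019 (SE), with 469, 443 and 462 in part 1 and 526, 507 and 582 in part 7 for Pes1 and 395, 268 and 287 in part 1 and 419, 343 and 410.4 in part 7 for Wdr12. Part 7 lay above part 1 in all arrays for Pes1, and the 2 parts overlapped for Wdr12.

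The other 5 genes of this group had slopes between -0.013 and 0.055 per part, and none passed (adjusted p = 0.154 to 0.817). Noc2l, whose yeast relative escorts pre-ribosomes out of the nucleolus, had 0.055 ± 0.026 (SE), with signals of 248, 189.7 and 224 in part 1 and 358, 201 and 398 in part 7, where replicate 2 of part 7 stood with part 1. Rrs1, which brings the particle of the smallest rRNA into the large subunit in yeast, had 0.026 ± 0.015 (SE). Ddx18, an RNA helicase, had 0.020 ± 0.015 (SE), and Rrp1b, a nucleolar scaffold protein, had 0.012 ± 0.026 (SE). Nop16, a large subunit assembly factor, had -0.013 ± 0.029 (SE). It read 229.7, 193 and 212 in part 1 and 188, 145 and 195 in part 7, and its part means were highest in part 1 and lowest in part 4.

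Of the 8 snoRNP core genes, 1 rose and 5 had positive slopes. These shares, 12.5% and 62.5%, are not far from the 8.09% and 49.0% of all genes tested. Nhp2, Dkc1, Gar1 and Nop10 form the particle that converts uridine to pseudouridine, in which Dkc1 is the enzyme. Nhp2 rose by 0.042 ± 0.014 (SE) per part (adjusted p = 0.0367). In MAS5 signal, Nhp2 read 2237, 1724 and 2301 in part 1, 2033, 1811 and 2231 in part 2 and 2059, 2144 and 2239.8 in part 3. Nhp2 then read 1992, 2009.7 and 2165 in part 4, 2247, 1977 and 2047 in part 5, 2346, 2215 and 2429.8 in part 6 and 2703, 2215 and 2624 in part 7. The arrays of parts 1 and 7 overlapped, and replicate 2 was the lowest array in parts 1, 2, 5, 6 and 7. The Nhp2 call was lost in 13 of the 35 alternatives, 6 of which left out a single array (replicate 2 of part 1 or 2, replicate 1 or 3 of part 6 or 7). Its 3 partners did not pass. Dkc1 had 0.0040 ± 0.019 (SE) per part (95% interval -0.034 to 0.042), Gar1 -0.0100 ± 0.013 (SE) (95% interval -0.037 to 0.017) and Nop10 -0.0036 ± 0.012 (SE) (95% interval -0.029 to 0.022).

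Fbl, Nop56 and Nop58 belong to the particle that methylates rRNA, in which Fbl is the methyltransferase. For Nop56 the slope came to 0.052 ± 0.020 (SE), with an adjusted p of 0.0723. Its signals per array, in MAS5 units, were 1213, 1421 and 1212 in part 1, 1736, 1789 and 1356 in part 2 and 1785, 2027 and 1494 in part 3. Nop56 then read 1759.7, 1707 and 1426 in part 4, 2018, 1592 and 1445 in part 5, 1911, 1800.3 and 1616 in part 6 and 1847, 1745 and 1559 in part 7. Replicates 1 and 3 of part 1 were the lowest of all arrays, every array of part 7 exceeded every array of part 1, and replicate 3 was the lowest array in parts 2 to 7. Fbl had 0.028 ± 0.016 (SE), and Nop58, the partner of Nop56 in the particle, had -0.0011 ± 0.028 (SE) (95% interval -0.059 to 0.056). Signals were 1770.1, 1929 and 1802 in part 1 and 2373, 1906 and 2305 in part 7 for Fbl and 355, 425 and 589.8 in part 1 and 357, 477 and 401 in part 7 for Nop58, with overlap in both. Nolc1, a chaperone of both kinds of snoRNP, had 0.049 ± 0.024 (SE) (adjusted p = 0.163). The MAS5 signals of Nolc1 were 735, 581 and 810.4 in part 1, 546, 670.1 and 886 in part 2 and 659, 583 and 859 in part 3. Nolc1 then read 722, 610.2 and 883 in part 4, 647, 732 and 988 in part 5, 695, 853 and 899.8 in part 6 and 743, 861 and 913 in part 7. Replicate 3 was the highest array of Nolc1 in each part, and parts 1 and 7 overlapped.

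None of the 5 nucleolar phosphoproteins and regulators passed the slope test with limma, and all 5 slopes were above 0, as were 49.0% of all. An unadjusted p under 0.05 was found for 2 of the 5 and for 30.8% of all genes tested. These 2 were Gnl3 and Mybbp1a. Gnl3 (nucleostemin), a nucleolar GTPase known from stem cells, had 0.061 ± 0.022 (SE) per part (adjusted p = 0.0585). Gnl3 had MAS5 signals of 1216, 1280.2 and 1574 in part 1, 1789.7, 1339.6 and 1986 in part 2 and 1779, 1603 and 2004 in part 3. Gnl3 then read 1488, 1425 and 1885 in part 4, 1540.5, 1355 and 2034 in part 5, 1932, 1829 and 2054 in part 6 and 1697, 1806 and 2191 in part 7. Replicate 3 was the highest array in every part, and part 7 lay above part 1. Mybbp1a, a nucleolar repressor of rRNA gene transcription, had 0.049 ± 0.019 (SE) (adjusted p = 0.0766). In MAS5 signal, Mybbp1a read 1073, 838 and 1172 in part 1, 1222, 1054 and 1288 in part 2 and 1222, 1314 and 1265 in part 3. Mybbp1a then read 1054, 1064 and 1325 in part 4, 1247, 997 and 1274 in part 5, 1433, 1105 and 1503 in part 6 and 1353, 1177 and 1484 in part 7. The lowest array was replicate 2 of part 1, and all arrays of part 7 exceeded those of part 1.

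Transcripts of the abundant nucleolar proteins Npm1 and Ncl had small slopes by their main probe sets, with intervals that included 0. Npm1 (nucleophosmin), a chaperone of ribosome assembly, had signals of 6342, 6393 and 6638 in part 1 and 6381, 6392 and 6704 in part 7, a slope of 0.0094 ± 0.0082 (SE) per part and a 95% interval of -0.0075 to 0.026. Ncl (nucleolin), which binds the precursor co-transcriptionally, had 3277, 3523 and 3918 in part 1 and 3870.1, 3485 and 3755 in part 7, a slope of 0.0086 ± 0.012 (SE) and an interval of -0.017 to 0.034. Both sets of arrays overlapped between the end parts. The upper end of the Npm1 interval, 0.026 per part, lay above the lower interval ends of Nhp2 (0.013), Wdr43 (0.014), Utp20 (0.021) and Rrp9 (0.022). It lay below those of Polr1b (0.045) and Nop2 (0.064). Whether the slope of Npm1 differed from those of the 6 genes that rose was not tested. Another Npm1 probe set sloped by -0.031 ± 0.020 (SE) and did not pass. The further Ncl probe sets had slopes from 0.014 ± 0.023 (SE) to 0.093 ± 0.035 (SE), the last at a mean signal of 32.4, and none passed. The other Ddx21 probe set sloped by 0.055 ± 0.023 (SE) and did not pass. Ddx21, a helicase of precursor processing that also acts at RNA polymerase II genes, had 0.012 ± 0.016 (SE) with 530.5, 558 and 403 in part 1 and 474, 578 and 554 in part 7.

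**Figure D2:**
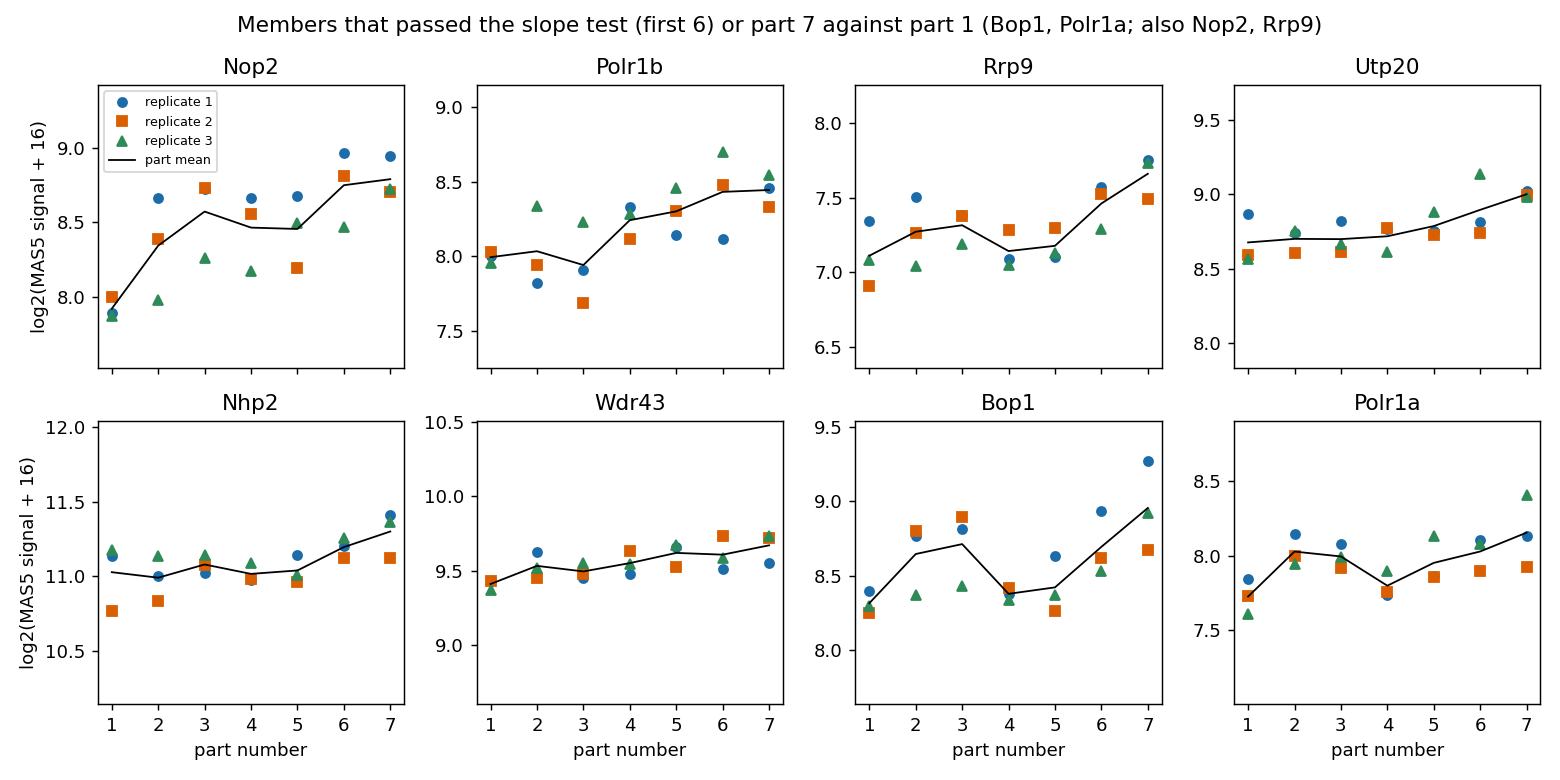
Each array's log2(MAS5 signal + 16) against part number for the genes called by the slope or by part 7 against part 1, 1 panel per gene, with a point for each of the 3 replicate numbers and a line joining the part means. Part 1 is lowest in all 3 replicates of Wdr43 and lies at the bottom of the Nop2 panel, and the Nhp2 arrays of parts 1 and 7 overlap.

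**Figure D3:**
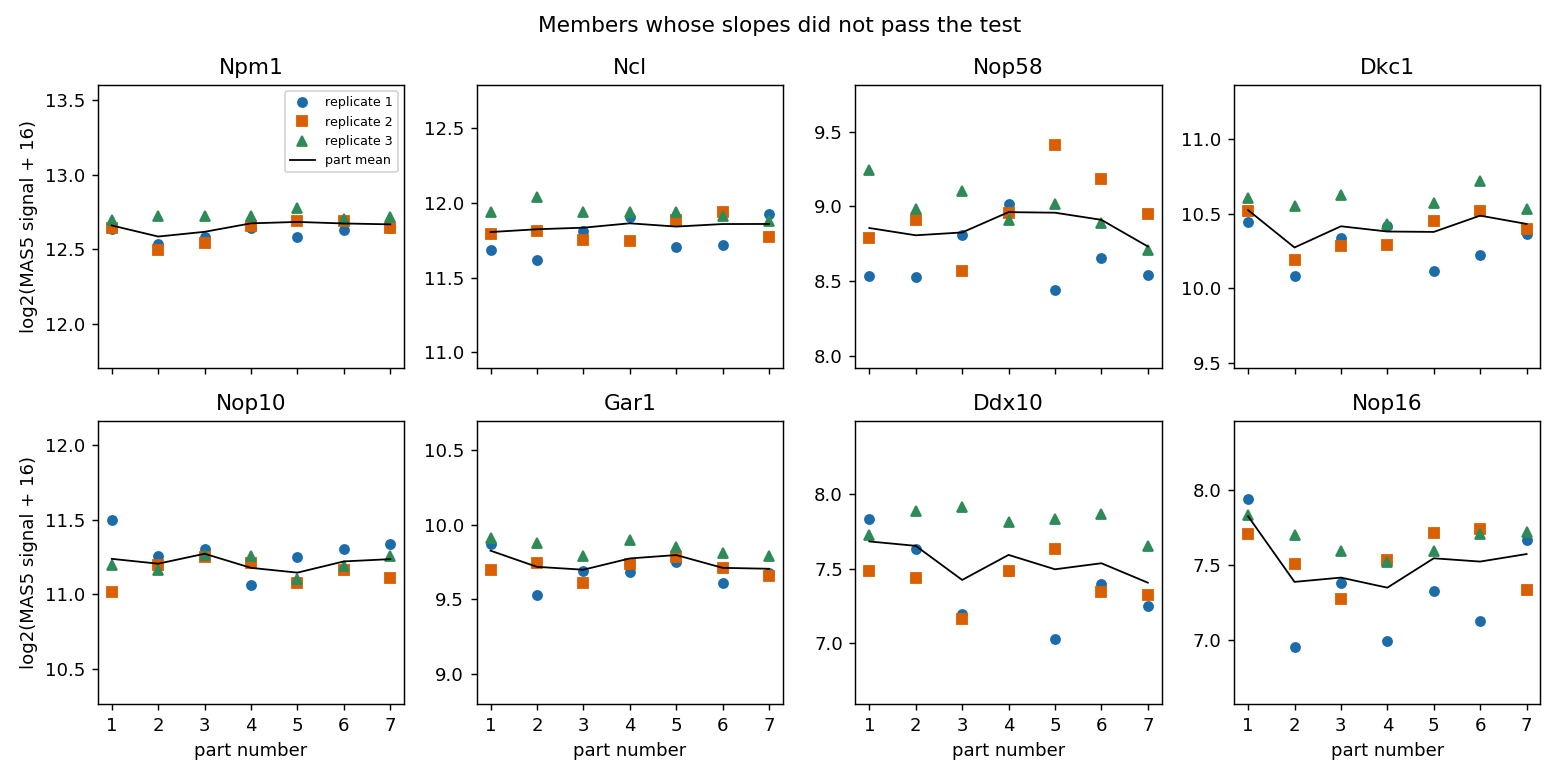
Each array's log2(MAS5 signal + 16) against part number for Npm1, Ncl and 6 genes with slopes near or below 0, none of which passed, 1 panel per gene, with marks and lines as for the genes that rose. Points of parts 1 and 7 overlap for Npm1, Ncl and Nop58, and the mean of Nop16 is highest in part 1.

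Part 7 exceeded part 1 in 4 of the 34 genes, Nop2, Bop1, Rrp9 and Polr1a, and 0 were lower (limma, adjusted p under 0.05), against 6.1% of all genes tested that were higher and 7.3% that were lower. The median log2 difference between the end parts was 0.26 over the set and 0.00086 over all genes tested. In 14 of the 34 genes, all 3 arrays of part 7 exceeded all 3 of part 1, a pattern found in 14.4% of all genes tested. The opposite order was found in 0 of the 34 and in 14.7% of all genes. The 4 calls rest on few arrays. A single call was left without replicate 2 of part 1 or replicate 1 of part 7, 2 without replicate 3 of part 7, and 7 were made without replicate 3 of part 2. Without the whole of replicate number 1 or 2, 0 were left.

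No step between neighbouring parts passed limma's test in any of the 34 genes. Between parts 1 and 2, 4 genes had an unadjusted p under 0.05 (Nop56, Nop2 and Polr1a higher in part 2, Nop16 lower), and 0 had one at any of the other 5 steps. Over all genes tested, 11.5% had an unadjusted p under 0.05 at that first step, a share like that of the set. Of all genes tested, 0.799% were called at the step from part 1 to 2, 0.00824% from 2 to 3, 0.0494% from 3 to 4, 0.321% from 4 to 5, 0.486% from 5 to 6 and 0.0% from 6 to 7. The medians of the set over these 6 steps were 0.04, 0.04, -0.07, 0.04, 0.07 and 0.02 on the log2 scale. The step from part 3 to 4 was upward in 12 of the 34 genes and in 46.9% of all genes, and the step from 5 to 6 in 27 of the 34 and in 54.4% of all genes. No gene of the set had an unadjusted p under 0.05 at either step. The part mean was lowest in part 1 for 18 of the 34 genes and highest in part 7 for 17, against 21.9% and 20.6% of all genes tested. For the contrast of parts 3, 4 and 5 with parts 1, 2, 6 and 7, 0 of the 34 passed and 0 had an unadjusted p under 0.05, against 2.92% of all genes that passed and 12.9% with an unadjusted p under 0.05.

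**Figure D4:**
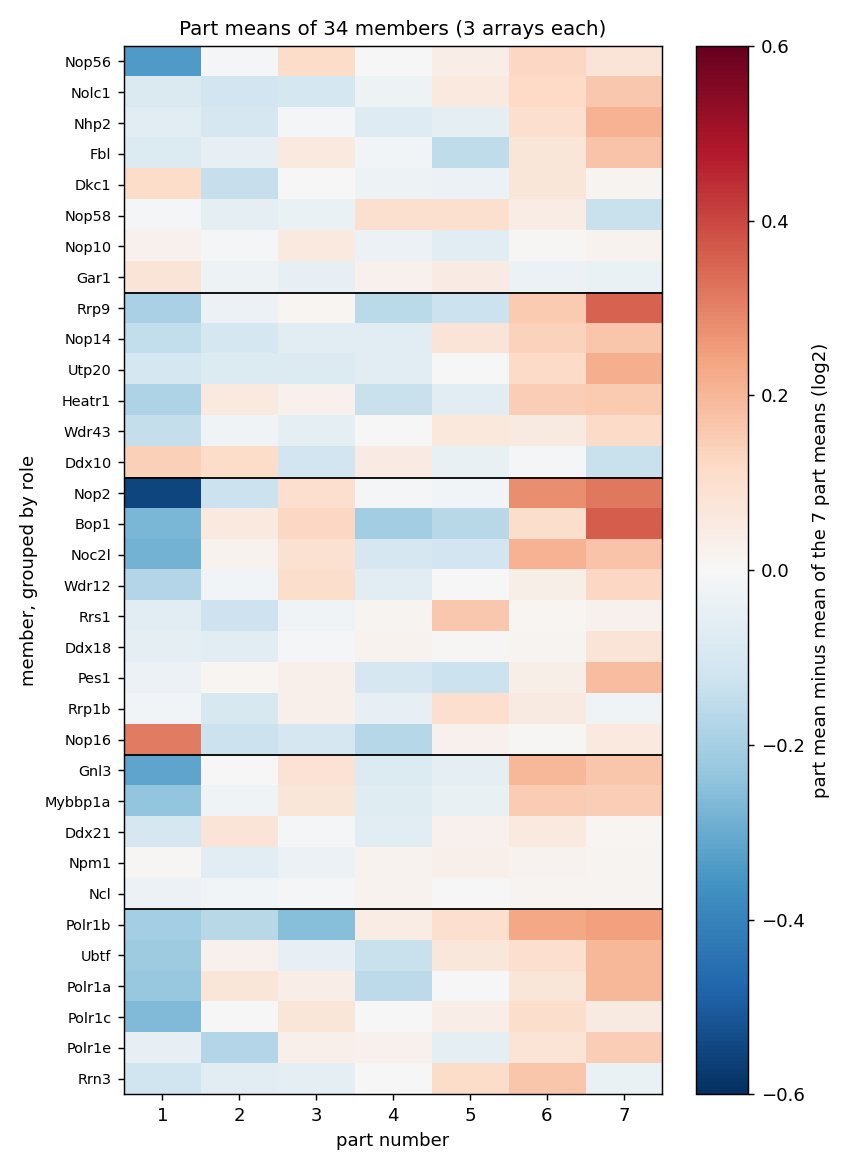
Heat map of the part means of the 34 genes, each as log2(signal + 16) minus the gene's mean over the 7 parts, with genes in rows by role and parts in columns. The part 1 column is lowest for 18 genes and the part 7 column highest for 17.

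With a term for the replicate number in the fit, 12 of the 34 genes rose by the slope and 0 fell, where 11.3% of all genes rose and 13.8% fell. The 6 called without the term were kept, and Nop56, Nolc1, Nop14, Gnl3, Mybbp1a and Polr1c were added (adjusted p = 0.00545 for Gnl3 to 0.0253 for Polr1c). Part 7 then exceeded part 1 in 14 of the 34 (11.3% of all genes), the F test called 9 (25.0% of all genes), and Nop56 and Gnl3 were called at the step from part 1 to 2 (3.98% of all genes). The mean log2(signal + 16) over the 34 genes was 9.31 in replicate 1, 9.29 in replicate 2 and 9.40 in replicate 3, and in each of the 7 parts the replicate 3 array had the highest mean. Replicate 3 also had the lowest 3' to 5' ratio of its part in parts 1 to 5, and the part of this in its level was not tested. Averaged over the parts, 24 of the 34 genes were highest in replicate 3. Whether the replicate numbers stand for embryos is not stated in the labels.

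Across the 21 arrays, correlations between the 34 genes were low at the median and ran from strongly positive to strongly negative. The median Pearson correlation over the 561 pairs was 0.25, against 0.0084 over pairs of all genes tested. Of the 561, 418 were above 0. Once the part means were removed the median was 0.15, with no value for all genes to set beside it. The arrays share parts, embryos and MAS5 scaling, so these values are a description. The highest were 0.87 for Nop56 with Nop2 and for Gnl3 with Polr1c, and the lowest was -0.81 for Nop56 with Ddx10. With the part means removed, Dkc1 with Polr1b had 0.92 and Nop56 with Ddx10 had -0.93. Nop58 had a mean correlation of -0.025 with the other members.

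A pair of alternatives was chosen after seeing the data. With the 3' to 5' ratio as a covariate, 8 of the 34 genes rose (Polr1b, Nolc1, Nop2, Nop14, Nhp2, Utp20, Wdr43 and Gnl3), where 8.35% of all genes rose, and Rrp9 did not pass (slope 0.062 ± 0.023 (SE), adjusted p = 0.0581). Over parts 2 to 7 alone, 3 of the 34 rose where 5.39% of all genes did, shares that differ by little. They were Polr1b at 0.10 ± 0.028 (SE) per part (adjusted p = 0.0178), Utp20 at 0.061 ± 0.018 (SE) (adjusted p = 0.0283) and Nhp2 at 0.055 ± 0.016 (SE) (adjusted p = 0.0220). Without part 1, 29 of the 34 slopes were above 0. The median slope was then 0.028 per part over the set and 0.00077 over all genes tested. Polr1b, Utp20 and Nhp2 were thus called both with the covariate and without part 1. Nop2, Wdr43, Nolc1, Nop14 and Gnl3 were called with the covariate alone. Of the 34 genes, 25 had further single-symbol probe sets, 37 in all, of which 34 passed the filter. Their slopes were positive in 28 of the 34 probe sets and had the sign of the main probe set in 31, and 2 were called, 1 for Noc2l and 1 for Rrp1b. By limma, that of Noc2l sloped by 0.082 ± 0.022 (SE) (adjusted p = 0.00926) and that of Rrp1b by 0.079 ± 0.021 (SE) (adjusted p = 0.0120). The main probe sets of these genes sloped by 0.055 and 0.012 and were not called. Of all 22064 probe sets tested, 3261 were called in either direction. Of the main probe sets, 8 carry the suffix _s_at or _x_at, given to probe sets that can match transcripts of more than 1 gene, among them those of Nhp2 and Wdr43. With limma, the other Nhp2 probe set sloped by 0.034 ± 0.027 (SE) (adjusted p = 0.476). The other Wdr43 probe set sloped by 0.037 ± 0.020 (SE) (adjusted p = 0.251).

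Most genes of the same pathway outside the set had positive slopes, and the share that rose differed between its lists. Of 100 further genes for ribosome biogenesis, 18 rose by the slope, against 8.09% of all genes tested, 0 fell and 81 had a positive slope, with a median of 0.022 per part. These lists, like the set itself, were drawn up with earlier results of these data known. Of 43 other large subunit factors 13 rose, with the highest slopes in Ppan (0.096 ± 0.019 (SE), adjusted p = 0.000873), a large subunit assembly factor, Nle1 (0.078 ± 0.028 (SE)), Ddx55 (0.078 ± 0.020 (SE)) and Ddx54 (0.072 ± 0.024 (SE)), the last 2 of them RNA helicases. Of 44 other small subunit processome genes 4 rose, which were Wdr36, Ngdn, Rrp36 and Bysl, with Wdr36 at 0.069 ± 0.014 (SE) (adjusted p = 0.00118). This is 9.09% of the list, near the share of all genes. Of 13 other genes of RNA polymerase I transcription 1 rose, Ttf1, the termination factor, at 0.073 ± 0.023 (SE) (adjusted p = 0.0287), or 7.69%, likewise near it. The count of 18 was 9 without replicate 3 of part 1, replicate 1 of part 6 or replicate 1 of part 7, 11 without replicate 1 or 2 of part 1, and 6 to 8 without a whole replicate number. It was 10 with the 3' to 5' ratio as a covariate and 4 over parts 2 to 7 alone. Of those named, Ppan, Wdr36 and Ngdn passed in both of these fits.

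Ribosomal protein genes, whose products the pathway assembles onto rRNA, had a median slope near 0. Of 42 tested, 0 rose and 0 fell with limma, 5 had an unadjusted p under 0.05 (11.9%, against 30.8% of all genes), and with a term for the replicate number 4 rose. For part 7 against part 1, 0 were higher and 1 was lower, Rps3a1, at -0.26 ± 0.084 (SE) on the log2 scale (adjusted p = 0.0432), named after its value was seen. With the replicate term 4 were higher and 3 lower. Their slopes were positive in 21 of the 42, and their median slope was 0.00074 per part.

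**Figure D5:**
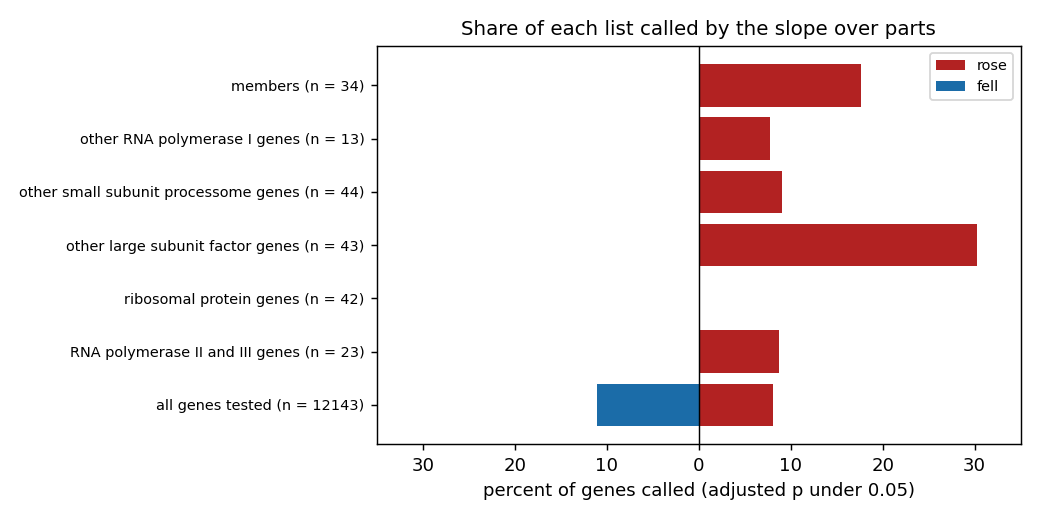
Percent of the genes of each list called by the slope over parts (adjusted p under 0.05), with bars right of 0 for genes that rose and left of 0 for genes that fell, and the number tested beside each list. The 34 genes stand at 17.6% risen, the other large subunit factors at 30.2%, the ribosomal proteins at 0, and all genes tested at 8.09% risen and 11.1% fallen.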

How the data were processed

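Total RNA from dissected PSM parts was amplified in 2 cycles and, biotin-labelled, put on Affymetrix mouse arrays, per the labels' protocols. Each value deposited by the authors is a signal intensity on a linear scale for 1 probe set. The submitters' processing notes name MAS5 without a version or scaling target. Since MAS5 scaling makes array means alike, a shift of most genes together would not show, and amplification can shorten transcripts towards the 3' end. The number of arrays limits the precision.

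Arrays were assigned to parts by title. The table holds 45101 probe sets, including 64 controls. In the platform annotation 34945 carried a single gene symbol, 932 carried several and 9160 carried none, and the last 2 kinds were not used. Names were looked up in the RefSeq gene table (GRCm38.p6), where 34741 matched. Each gene was represented by its brightest probe set on average. Signals were transformed as log2(signal + 16), which understates changes of low genes, and genes reaching 13.3 (the median over the table) on at least 3 arrays were tested. limma 3.58.1 (R 4.3.3) was run with a variance trend and Benjamini-Hochberg adjustment at 0.05, on the slope over part number and, in a fit of the 7 parts as groups, on the F test, part 7 against part 1, neighbouring parts and the middle contrast. The fits were also run on simulated data with noise drawn independently for each array, which says nothing of arrays that share an embryo.

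The members, the gene lists and the tests were chosen with earlier results of these data known. Each member is named with its slope. Signals in every array are given for members called by the slope, with or without a replicate term, or by part 7 against part 1. Other genes are named by absolute slope among those called in a list, up to 4 each way, plus Myc and Mycn. Settings varied were the pseudocount (1 or 64), the filter (none or the 75th percentile), the normalization (quantile or median centring), the trend, array weights, the choice of probe set, a replicate block, the groups in the fit, and leaving out arrays or replicate numbers.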

Additional observations from a re-analysis of the deposited data

How the results depend on the processing

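Arrays with the same replicate number tended to vary together. Deviations from the part means correlated by 0.037 to 0.68 (median 0.31) between same-numbered arrays, over 0.1 in 55 of 63 pairs. Between arrays of different numbers the median was -0.23. The deviations of a part sum to 0, so these medians are tied to each other. In 18 of 21 arrays the correlation was best with their own number. This is a hint from the data and not from the design. With a replicate block, 12 of the 34 genes were called by the slope, 9 by F, 14 for part 7 against part 1 and 2 at neighbouring steps. With a random replicate block these were 10 by the slope (10.5% of all genes rose), 6 by F (22.4%) and 13 for part 7 against part 1 (10.3%). Slope calls numbered 14 with median centring (all genes 10.7%) and 10 with the mean of probe sets (8.18%), F calls 3 with array weights (18.3%), and calls of part 7 against part 1 numbered 1 when only parts 1 and 7 were fitted, where fewer arrays set the spread. Chosen after seeing the data, the 3' to 5' ratio as a covariate gave 2 F calls (all genes 15.9%) and 8 of part 7 against part 1 (5.83%), and 10 of the other pathway genes, and leaving out part 1 gave 3 slope calls and 4 of the other pathway genes. With arrays or replicate numbers left out, slope calls ranged from 3 (without replicate 3) to 8, F calls from 0 to 3, calls of part 7 against part 1 from 0 to 7, and other pathway genes from 6 to 21; neighbouring steps and the middle contrast stayed at 0. All members called in any of these were higher with the part number, except by F, which has no direction. Slopes that changed sign were not called in either setting. For Nop58 they were 0.00138 with quantile normalization, 0.00710 with median centring, 0.0102 with array weights and 0.0205 with the covariate. Dkc1 had -0.00236 with quantile normalization, -0.00412 with the mean of probe sets and -0.0275 with another probe set, Npm1 -0.0106 and -0.0307 likewise, Bop1 -0.00731 with another probe set, Nop10 0.00460 with median centring, Gar1 0.00333 and Nop16 0.0181 with the covariate, and without part 1 Nop16 0.0415 and Ddx21 -0.00028. With arrays left out the slopes ranged from -0.035 to 0.032 for Nop58, from -0.0046 to 0.013 for Dkc1, from -0.012 to 0.0081 for Nop10, from -0.028 to 0.0035 for Nop16, from -0.00097 to 0.030 for Rrp1b, from -0.0017 to 0.021 for Ncl, from -0.015 to 0.032 for Ddx21, from -0.0026 to 0.067 for Rrn3. The causes were not tested.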

Other observations

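Genes of the Myc network, a family of E-box factors and their partners, changed in both directions. Of 11 tested with limma, 3 rose with the part number and 1 fell, where 8.09% of all genes tested rose and 11.1% fell. Mycn, the Myc family member best known from embryonic mesoderm and neural tissue, rose by 0.096 ± 0.027 (SE) per part (adjusted p = 0.0135), and part 7 exceeded part 1 by 0.65 ± 0.17 (SE) on the log2 scale. The Max partners Mxi1 and Mnt, known as antagonists of Myc, rose by 0.10 ± 0.030 (SE) (adjusted p = 0.0182) and 0.072 ± 0.025 (SE) (adjusted p = 0.0466). Mycl fell, with a slope of -0.16 ± 0.041 (SE) (adjusted p = 0.00737). The slope of Myc itself was 0.044 ± 0.060 (SE) (adjusted p = 0.675) over the 7 parts and 0.191 over parts 2 to 7 (adjusted p = 0.0395), an alternative chosen after seeing the data. Over parts 2 to 7 the slopes of Mycn, Mxi1, Mnt and Mycl did not pass.

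Subunits of the other nuclear RNA polymerases had 12 of 23 slopes above 0 and a median of 0.0025 per part. The share that rose was 8.70%, near the 8.09% of all genes tested. Of these 23, Polr3k, a small subunit of RNA polymerase III, rose by 0.052 ± 0.013 (SE) (adjusted p = 0.00522) and Polr2i, a small subunit of RNA polymerase II, by 0.046 ± 0.016 (SE) (adjusted p = 0.0494). The Polr3k call was lost in 3 of 37 alternatives and that of Polr2i in 26.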
